A study of Danio rerio with 9 samples.

Results

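Sphingosine-1-phosphate (S1P) is a lysophospholipid that cells use both as an intermediate of sphingolipid breakdown and as a secreted signal. Transcripts of its receptors and of the proteins that make, export and degrade it were examined in RNA-seq data of whole zebrafish larvae. The genes were picked by symbol, namely s1pr1, s1pr2, s1pr3a, s1pr3b, s1pr4, s1pr5a, s1pr5b, sphk2, spns2 and sgpl1. Of these 10 genes, 8 were measured at both concentrations, 5 of them receptors, and s1pr3b and s1pr4 were not analysed here. Larvae of an AB × Tübingen stock spent 7 days from the embryo stage in rearing medium with 0.1% DMSO as the solvent control, with 0.1 µg/L perfluorononanoic acid (PFNA), or with 10 µg/L PFNA. PFNA is a long-chain perfluoroalkyl acid that persists in water, and the study made its PFNA solutions up in 0.1% DMSO before adding them to the medium. Each library came from the pooled larvae of 1 beaker (14 to 15 whole fish), and each of the 3 groups had 3 libraries. The comparison asks whether PFNA changes the level of these transcripts in the whole larva.

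Sphingosine is phosphorylated to S1P by sphingosine kinases, and S1P leaves the cell through the transporter Spns2, best known from endothelium. Outside the cell it binds G protein-coupled receptors of the S1PR family, which steer the actin cytoskeleton, cell junctions and migration. S1P is removed either by phosphatases, which return it to sphingosine, or by S1P lyase, which splits it irreversibly. In zebrafish embryos, loss of s1pr2 or of spns2 keeps the paired heart primordia from fusing at the midline.

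Between 14491289 and 23963715 reads fell on genes in each library. The deposited values are normalized counts, which are reads divided by a size factor of the library, fitted separately for each concentration, and the controls are the same reads in either table. Levels below are on a scale set jointly for all 9 libraries, and tests against DMSO were made within the table of each concentration. On principal component 1 of all genes, with 51.4% of the variance, DMSO replicate 3 (41.9) and 0.1 µg/L replicate 2 (19.4) lay with the 10 µg/L libraries (39.5 to 51.4), and the other DMSO and 0.1 µg/L libraries lay between -68.7 and -31.1. All 6 exposed libraries and DMSO replicate 3 carried 1 first sequencing index, and DMSO replicates 1 and 2 each carried another, so index and exposure cannot be told apart in most of the controls. With 3 libraries against 3, the smallest p of an exact two-sided permutation test is 0.1. Transcripts were measured in whole larvae, where fewer cells of a type and less RNA per cell cannot be told apart.

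Of the S1P genes the receptor s1pr2 differed most, at 0.368-fold of DMSO at 0.1 µg/L and 3.16-fold higher at 10 than at 0.1 µg/L. No S1P gene reached an adjusted p under 0.05 in either comparison with DMSO or between the concentrations, in limma, edgeR or DESeq2. At 0.1 µg/L, 1 of the 8 genes (s1pr2, lower) had an unadjusted p under 0.05 in limma, against 1.57% of all 19065 genes tested. At 10 µg/L it was 0 of 8 against 13.1% of all 19610 genes tested. Between the concentrations it was again s1pr2 alone, 1 of 8 against 25.7% of all 18965 genes tested. By adjusted p, DESeq2 called 1.17% of all genes at 10 µg/L and 8.77% between the concentrations, limma and edgeR 0 in each. The median log2 fold change of the 8 genes was -0.09 at 0.1 µg/L, 0.16 at 10 µg/L and 0.19 for 10 against 0.1 µg/L, where the medians of all genes tested were 0.00, 0.01 and 0.00. Groups that did not overlap were 0, 1 and 2 of the 8 genes in these comparisons, against 6.63%, 18.0% and 28.7% of all genes. The 2 comparisons with DMSO share their control libraries. With the first index in the model, which leaves DMSO replicate 3 as the only control, log2 fold changes at 0.1 µg/L were -1.88 for s1pr2, -1.30 for s1pr5a and -0.89 for sgpl1, with limma adjusted p-values from 0.408 to 0.444. The same model at 10 µg/L left s1pr1 at 0.47 (limma adjusted p = 0.318), and the direction of 5 of the 8 genes turned.

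**Figure D1:**
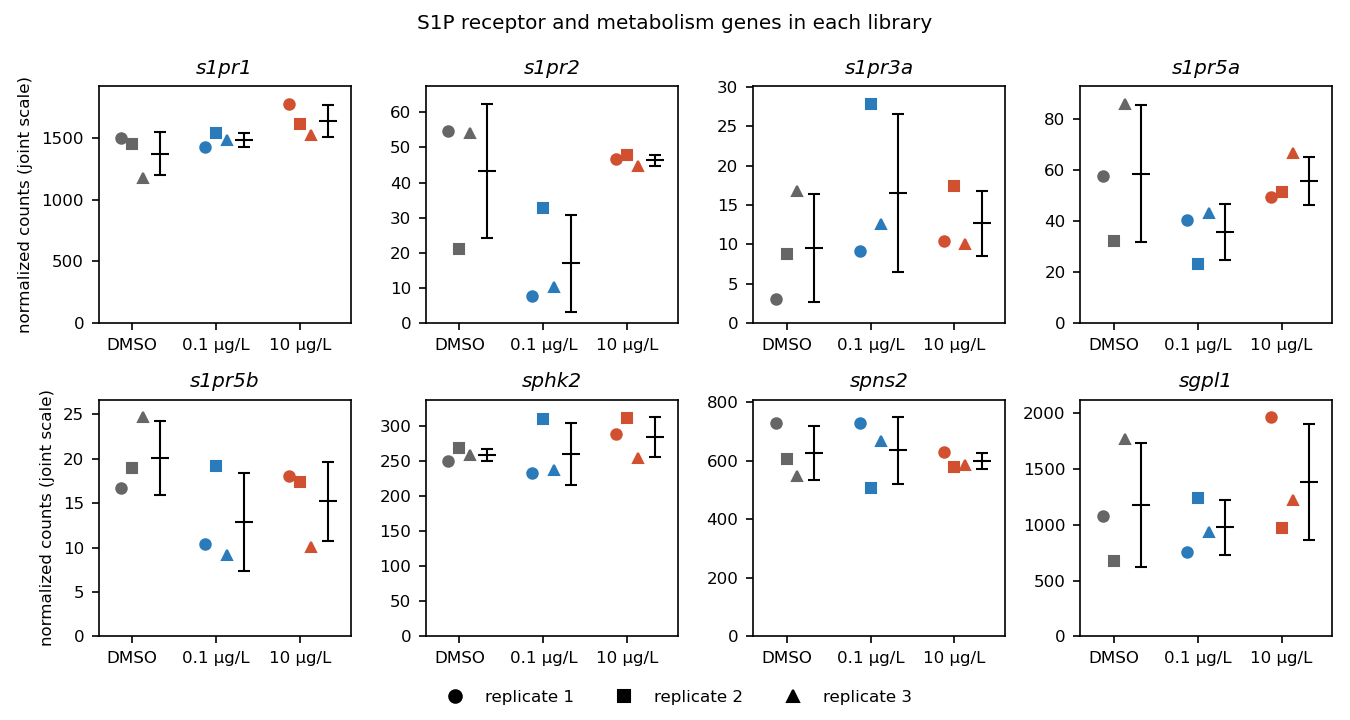
Normalized counts on the joint scale (vertical axes, starting at 0) of the 8 S1P genes in each of the 9 libraries, by group; points are libraries, with a symbol for each replicate number, and the black mark with its bar is the group mean ± SD. s1pr2 is lowest in 0.1 µg/L replicates 1 and 3, s1pr1 is higher in the 10 µg/L libraries than in any DMSO library, and sgpl1 spreads widely within the DMSO and 10 µg/L groups.

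The receptor s1pr2, which zebrafish embryos need for heart formation, was the S1P gene whose group means differed by the largest fold. Its level was 54.6, 21.1 and 54.2 normalized counts in DMSO replicates 1, 2 and 3. At 0.1 µg/L it was 7.81, 32.7 and 10.3, and at 10 µg/L it was 46.6, 47.7 and 44.6. The 10 µg/L libraries lay close together, within the DMSO range, and above every 0.1 µg/L library. Replicates 1 and 3 at 0.1 µg/L lay below every other library, while replicate 2 lay above DMSO replicate 2. The low libraries rest on few reads, 6 and 9 in 0.1 µg/L replicates 1 and 3, beside 34 in replicate 2 and 29 to 68 in the DMSO libraries. The mean was 43.3 ± 19.2 in DMSO, 16.9 ± 13.7 at 0.1 µg/L and 46.3 ± 1.58 at 10 µg/L (SD, n = 3 each).

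At 0.1 µg/L the log2 fold change of s1pr2 against DMSO was -1.44 (SE 0.60, 95% confidence interval -2.79 to -0.10), with an unadjusted p of 0.0383 and an adjusted p of 1.00 in limma. The groups overlapped, and the exact permutation test gave p = 0.2. The unadjusted p was above 0.05 without 0.1 µg/L replicate 1 (log2 fold change -1.06) or replicate 3 (-1.24), and without DMSO replicate 1 (-1.22) or replicate 3 (-1.22), and the adjusted p was 0.875 to 1.00 with any library left out. At 10 µg/L the log2 fold change was 0.20 (SE 0.39, -0.66 to 1.06; limma adjusted p = 0.861), and it turned to -0.24 without DMSO replicate 2.

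Set directly against each other, the concentrations differed by 1.66 on the log2 scale for s1pr2 (SE 0.50, 0.56 to 2.77), a 3.16-fold higher level at 10 µg/L with an interval of 1.47 to 6.80. The unadjusted p was 0.00730 and the adjusted p 0.0887 in limma, where it ranked 1559 by p among 18965 genes. On recovered reads the adjusted p was 0.0700 in DESeq2 and 0.124 in edgeR. Without 0.1 µg/L replicate 2 the difference was 2.25 with an adjusted p of 0.00139 in limma. Leaving out this library took the number of all genes at an adjusted p under 0.05 in limma from 0 to 5125, so the smaller p was not particular to s1pr2. That library stood apart from its group on component 1 as well as in s1pr2. The summed levels of 12 leukocyte markers were also lowest in 0.1 µg/L replicates 1 and 3, and ranged over 744 to 1279 in DMSO, 672 to 1016 at 0.1 µg/L and 990 to 1255 at 10 µg/L. The summed levels of 7 epidermis markers were lowest in the same libraries, with ranges of 160585 to 219365, 120654 to 246393 and 206902 to 242733. Over the 9 libraries, Pearson's r of s1pr2 was 0.840 with the leukocyte sum and 0.885 with the epidermis sum. Each had an adjusted p of 0.0639 by exact permutation, over 88 relations of S1P genes with marker lists. Spearman's rank correlations were 0.633 and 0.600, each with an adjusted p of 0.453 by the same test. Without the 2 libraries farthest from the median of the sum, r was 0.661 and 0.598. None of these markers was at 0 in any library, and both lists were singled out after their values were seen. The part of these cells in the s1pr2 difference was not tested.

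The receptor s1pr1, which is needed for a stable vasculature in zebrafish and mice, had the smallest p of the 8 genes at 10 µg/L. Its levels were 1500, 1453 and 1173 normalized counts in DMSO, 1425, 1543 and 1488 at 0.1 µg/L, and 1781, 1614 and 1524 at 10 µg/L. At 10 µg/L even the lowest library, replicate 3, exceeded the highest control, and the 0.1 µg/L libraries overlapped both groups. The log2 fold change at 10 µg/L was 0.25 (SE 0.15, -0.09 to 0.59; limma adjusted p = 0.523), a 1.19-fold level. The exact permutation test gave p = 0.1, the smallest it allows. At 0.1 µg/L the log2 fold change was 0.12 (SE 0.15, -0.21 to 0.46; limma adjusted p = 1.00). The highest level was only 1.52 times the lowest over the 9 libraries, and a change of the size seen in s1pr2 lay outside both intervals. DMSO replicate 3 held the least s1pr1 and also the lowest summed radial glia markers, 30212 against 35561 to 37832 in the other libraries. Its summed markers of neurons (32997), heart (18159) and lens (19608) were the lowest of the 9 libraries as well. Over the 9 libraries, Pearson's r of s1pr1 with the radial glia sum was 0.877 (exact permutation adjusted p = 0.0639). Spearman's rank correlation was 0.667 (adjusted p = 0.432 by the same test). Without the 2 libraries farthest from the median of that sum, r was 0.467. With the neuron, heart and lens sums r was 0.16, 0.09 and 0.73. The radial glia list was singled out after its values were seen, and the part of these cells in the s1pr1 level was not tested.

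The remaining receptors were measured from few reads. Counts of s1pr3a, whose mammalian counterpart acts in vessels and heart, were 3.03, 8.75 and 16.7 in DMSO, 9.11, 27.9 and 12.5 at 0.1 µg/L and 10.5, 17.4 and 10.1 at 10 µg/L. These groups overlapped throughout, and a library held between 2 and 29 reads. The log2 fold change of s1pr3a was 0.83 (SE 0.72, -0.77 to 2.44; limma adjusted p = 1.00) at 0.1 µg/L and 0.58 (SE 0.65, -0.87 to 2.02; limma adjusted p = 0.745) at 10 µg/L. Both intervals hold falls and rises alike, and its residual SD was at percentiles 94.2 and 93.0 of all genes at the low and the high concentration.

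The zebrafish genes s1pr5a and s1pr5b both correspond to mammalian S1PR5, a receptor of oligodendrocytes and natural killer cells. Levels of s1pr5a were 57.6, 32.1 and 86.1 normalized counts in DMSO, 40.4, 23.1 and 43.3 at 0.1 µg/L and 49.4, 51.4 and 66.5 at 10 µg/L. All 10 µg/L libraries were above all 0.1 µg/L libraries, and the DMSO range held all exposed libraries but 0.1 µg/L replicate 2. The log2 fold change of s1pr5a was -0.64 (SE 0.42, -1.59 to 0.31; limma adjusted p = 1.00) at 0.1 µg/L, 0.02 (SE 0.36, -0.79 to 0.82; limma adjusted p = 0.989) at 10 µg/L, and 0.67 (SE 0.32, -0.05 to 1.39; limma adjusted p = 0.223) between the concentrations. Levels of s1pr5b were 16.7, 19.0 and 24.7 in DMSO, 10.4, 19.2 and 9.12 at 0.1 µg/L and 18.1, 17.4 and 10.1 at 10 µg/L. The s1pr5b groups overlapped, with log2 fold changes of -0.65 (SE 0.49; limma adjusted p = 1.00) and -0.42 (SE 0.43; limma adjusted p = 0.722) against DMSO. Within a library s1pr5a had more reads than s1pr5b in all 9, and the log2 ratio of their reads was 1.45 ± 0.60 in DMSO, 1.49 ± 1.07 at 0.1 µg/L and 1.91 ± 0.70 at 10 µg/L (SD, n = 3 each). The summed markers of oligodendrocytes and myelin lay between 5521 and 7205 in all libraries, and 0 of their 10 genes tested at 0.1 µg/L, 1 of 10 (lower) at 10 µg/L and 2 of 10 (lower) between the concentrations had an unadjusted p under 0.05 in limma, against 1.57%, 13.1% and 25.7% of all genes.

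**Figure D2:**
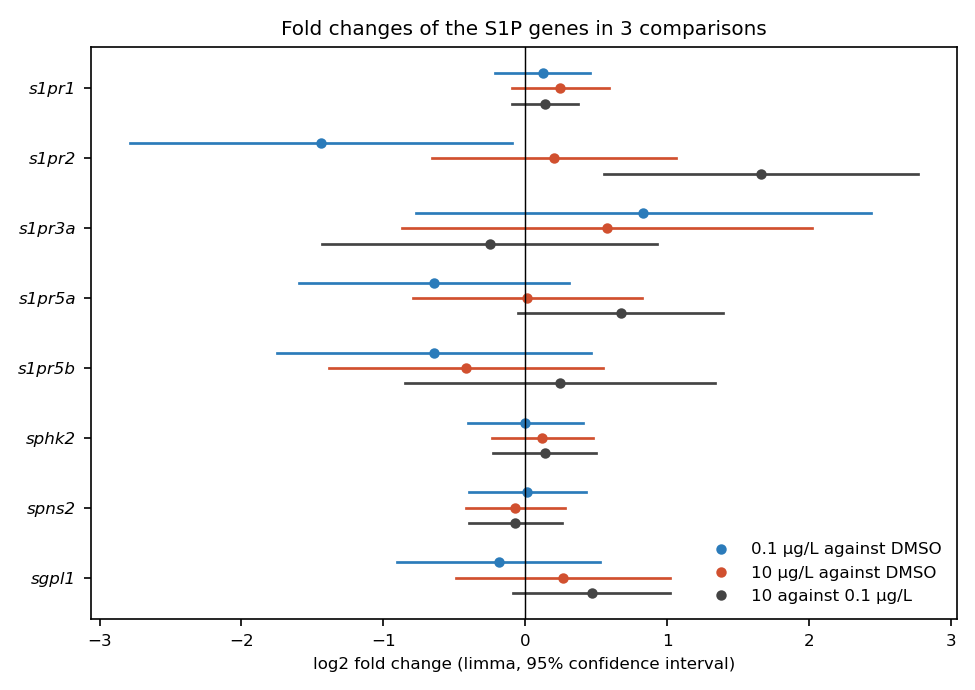
Log2 fold changes (horizontal axis) of the 8 S1P genes in 3 comparisons, from limma; points are estimates and lines are 95% confidence intervals. Only the intervals of s1pr2 at 0.1 µg/L against DMSO (-2.79 to -0.10) and at 10 against 0.1 µg/L (0.56 to 2.77) leave out 0, and the intervals of s1pr1, sphk2 and spns2 are the narrowest.

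The kinase gene sphk2 and the transporter gene spns2 were among the steadiest of the group. The kinase gene sphk1 was not analysed here, and S1P itself was not measured. Levels of sphk2, a sphingosine kinase of the nucleus and inner membranes, were 250.1, 268 and 258 normalized counts in DMSO, 233, 311 and 237 at 0.1 µg/L and 288, 311 and 255 at 10 µg/L. The log2 fold change of sphk2 was -0.00 (SE 0.18, -0.41 to 0.40; limma adjusted p = 1.00) at 0.1 µg/L and 0.12 (SE 0.16, -0.24 to 0.48; limma adjusted p = 0.788) at 10 µg/L. Levels of spns2, the exporter, were 727, 607 and 547 in DMSO, 729, 508 and 668 at 0.1 µg/L and 631, 578 and 587 at 10 µg/L. The log2 fold change of spns2 was 0.02 (SE 0.19, -0.40 to 0.43; limma adjusted p = 1.00) at 0.1 µg/L and -0.07 (SE 0.16, -0.42 to 0.28; limma adjusted p = 0.884) at 10 µg/L. Groups overlapped for both genes, and the highest library was 1.33 times the lowest for sphk2 and 1.43 times for spns2. A change of either gene by a log2 value beyond 0.48 in either direction lay outside all 4 intervals. Their residual SD was at the 16.5th and 34.4th percentile of all genes at 0.1 µg/L, where that of s1pr2 was at the 93.6th. These percentiles take no account of the number of reads. In that comparison a library held 165 to 368 reads of sphk2, 480 to 832 of spns2 and 6 to 68 of s1pr2. Endothelium markers, which include the vessel genes kdrl and cdh5, summed to between 1859 and 2138 in all 9 libraries.

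The gene of S1P lyase, sgpl1, spread widely between libraries of 1 group. Its levels were 1084, 680 and 1773 normalized counts in DMSO, 755, 1238 and 940 at 0.1 µg/L and 1967, 967 and 1224 at 10 µg/L. Of all 9 libraries, DMSO replicate 2 was the lowest and DMSO replicate 3 the second highest, so the controls enclosed the whole 0.1 µg/L group. The mean was 1179 ± 553 in DMSO, 978 ± 244 at 0.1 µg/L and 1386 ± 519 at 10 µg/L (SD, n = 3 each). The log2 fold change of sgpl1 was -0.19 (SE 0.32, -0.90 to 0.53; limma adjusted p = 1.00) at 0.1 µg/L, 0.27 (SE 0.34, -0.49 to 1.02; limma adjusted p = 0.779) at 10 µg/L and 0.47 (SE 0.25, -0.09 to 1.02; limma adjusted p = 0.263) between the concentrations. It turned to 0.17 at 0.1 µg/L without DMSO replicate 3, and between the concentrations it was 0.65 with an adjusted p of 0.0478 in limma without 0.1 µg/L replicate 2. In that last setting 5125 of all genes had an adjusted p under 0.05 in limma, against 0 with all libraries.

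The level of sgpl1 followed the markers of intestine from library to library. In mice S1P lyase is abundant in the intestinal lining. The summed intestine markers were 8089, 3747 and 14851 normalized counts in DMSO, 5054, 9558 and 7323 at 0.1 µg/L and 16637, 7679 and 9863 at 10 µg/L. Both measures put the 3 libraries of each group in the same order, with DMSO replicate 2 lowest and 10 µg/L replicate 1 highest of all 9. Pearson's r of the log2 values was 0.986 (exact permutation p = 1.65e-05, adjusted p = 0.00146) and Spearman's rank correlation was 0.983 (exact permutation p = 4.96e-05, adjusted p = 0.00437), two-sided. This was 1 of 88 relations, of the 8 S1P genes with 11 lists of tissue markers, computed after the levels had been seen, and no other had an adjusted p under 0.05. The next for sgpl1 were liver (r = 0.890, rank correlation 0.917) and leukocytes (r = 0.857, rank correlation 0.850), with adjusted p-values from 0.0577 to 0.134 by the same exact permutation test, and neurons, with r = -0.784. Without the 2 libraries farthest from the median of the intestine sum, r was 0.992. Over the 7 libraries with 1 first index it was 0.995, and the other indexes hold 1 library each. Each of the 5 intestine genes moved with sgpl1, from r = 0.890 for the lipid carrier apoa4a to r = 0.982 for the brush border gene vil1, and fabp2 alone gave most of the sum. The fold changes of sgpl1 had the sign of those of the intestine genes, which these correlations over the same libraries largely entail. Of the intestine genes 5 of 5 had a lower mean at 0.1 µg/L (median log2 fold change -0.35) and 5 of 5 a higher mean at 10 µg/L (0.58). Of all genes tested 50.6% were higher at 0.1 µg/L and 50.8% at 10 µg/L. The 5 genes share the same libraries, so their directions are not independent. At an unadjusted p under 0.05 in limma 0 of the 5 intestine genes passed in both, against 1.57% and 13.1% of all genes. The permutation took the 9 libraries as exchangeable, though they form 3 exposure groups, and sgpl1 had r = 0.69 with component 1. That r was 0.74 for s1pr2, 0.70 for sphk2 and -0.75 for spns2, and between 0.17 and 0.55 for the remaining S1P genes. How many of all genes follow the intestine sum as closely is not given. The r values with libraries left out or for single markers reuse the same libraries and are no independent check. The part of intestinal tissue in the sgpl1 level was not tested.

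**Figure D3:**
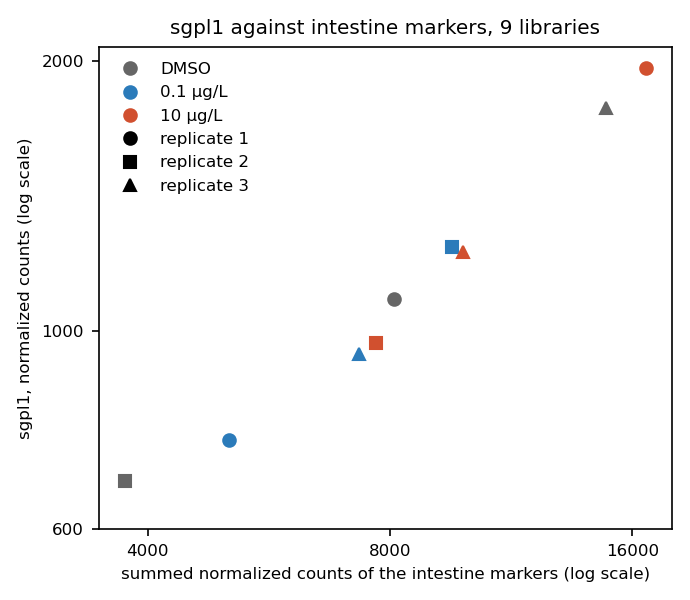
Normalized counts of sgpl1 (vertical axis, log scale) against the summed normalized counts of 5 intestine markers (horizontal axis, log scale) in the 9 libraries; colours are groups and symbols are replicate numbers. The libraries of all 3 groups lie along 1 line, from DMSO replicate 2 (3747 and 680) to 10 µg/L replicate 1 (16637 and 1967).

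Because a ratio within a library needs no size factor, the balance of the kinase to the lyase was also taken from reads. The log2 ratio of sphk2 to sgpl1 was -2.12, -1.34 and -2.78 in DMSO, -1.70, -1.99 and -1.99 at 0.1 µg/L and -2.77, -1.64 and -2.26 at 10 µg/L. Controls spanned both exposed groups, and the libraries with most sgpl1, DMSO replicate 3 and 10 µg/L replicate 1, had the lowest ratios. This largely restates sgpl1, the denominator, whose highest library was 2.89 times the lowest, against 1.33 times for sphk2. Among the 28 pairs of S1P genes, the r of levels over the 9 libraries lay between -0.81 (s1pr3a with spns2) and 0.66, with a median of 0.11, so the 8 genes did not move as a block.

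**Figure D4:**
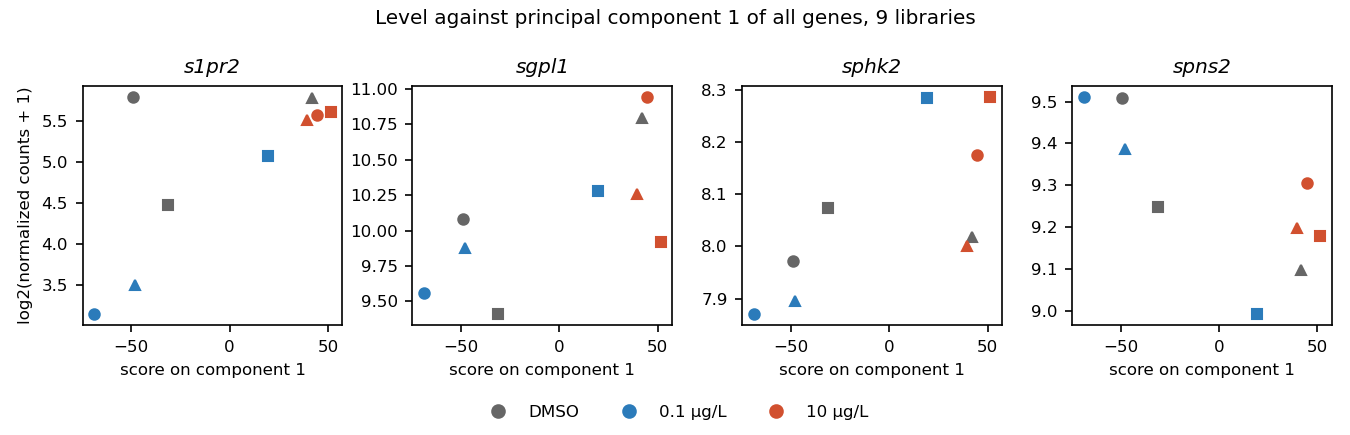
Level of 4 S1P genes (vertical axes, log2 of normalized counts plus 1) against the score on component 1 of all genes (horizontal axes) in the 9 libraries, coloured by group. DMSO replicate 3 (score 41.9) and 0.1 µg/L replicate 2 (19.4) sit with the 10 µg/L libraries, and 0.1 µg/L replicates 1 and 3 are lowest for s1pr2.

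Genes with a pattern like that of s1pr2 were sought over 18939 genes by Pearson's r across the 9 libraries, on the joint scale, where the libraries differ in depth. The closest were the potassium channel kcnj2a (0.986), si:ch211-199i15.5 (0.977), prrg4 (0.966), a copy of TSTA3 (0.966) and the small GTPase nras (0.966). For s1pr1 they were the glial glutamate transporter slc1a2b (0.975), fstl5 (0.971), the kinase subunit csnk2a1 (0.949), znf503 (0.948) and ahdc1 (0.948). With any 1 library left out, r stayed at or above 0.943 for the genes like s1pr2 and at or above 0.843 for those like s1pr1. These genes were picked for the highest r among 18939 over the same 9 libraries, so the leave-out values are no independent check. The level of kcnj2a was low, at 3.90 to 25.5 normalized counts.

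Around the S1P genes, the other genes of sphingolipid metabolism and signaling were counted by unadjusted p under 0.05 in limma, and are given as deposited in the table of each concentration. At 0.1 µg/L, where 1.57% of all genes passed, the counts were 1 of 11 other genes of S1P handling, 0 of 27 for ceramide and sphingosine, 0 of 10 for sphingomyelin, 0 of 21 for glycosphingolipids, 0 of 36 for G proteins and effectors and 0 of 8 for lysophosphatidic acid receptors, so the share over these lists was not above that of all genes. The gene that passed, plpp2b, is a lipid phosphate phosphatase of the family that dephosphorylates S1P outside the cell. Its values were 53.4, 59.7 and 68.5 normalized counts at 0.1 µg/L and 82.0, 84.4 and 127.3 in DMSO. They did not overlap, as for 6.63% of all genes. The log2 fold change of plpp2b was -0.66 (SE 0.27, unadjusted p of 0.0330, limma adjusted p = 1.00). The smallest p of the other lists were those of the acid ceramidase asah1a (-0.42), the sphingomyelinase smpd5 (0.32), the hexosaminidase subunit hexb (0.24), the kinase akt1 (-0.60) and the lysophosphatidic acid receptor lpar4 (0.82), given as log2 fold changes, with unadjusted limma p-values from 0.0693 to 0.216. Median log2 fold changes of the 6 lists lay between -0.12 and 0.04.

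At 10 µg/L the genes with the smallest p around ceramide were ugcg and cers4a, both higher than in DMSO. In the ceramide and sphingosine list 3 of 28 genes (10.7%) passed, all higher. Of glycosphingolipid metabolism, which holds genes of synthesis and of breakdown, 4 of 22 (18.2%) passed, all higher. Of all genes 13.1% passed in either direction at 10 µg/L, and 7.91% passed as higher. No gene of these 2 lists had an adjusted p under 0.05 in limma, and the median log2 fold changes of the lists were 0.13 and 0.10. In the sphingomyelin list 0 of 10 genes passed, with a median of 0.19 and 9 of 10 higher, against 50.8% of all genes tested. Genes of 1 list share the same libraries, so their directions are not independent. Of other S1P-handling genes 0 of 12 passed, and of lysophosphatidic acid receptors 0 of 8. Glucosylceramide synthase, ugcg, stood at 116.1, 107.2 and 87.8 normalized counts at 10 µg/L and at 26.1, 50.7 and 42.5 in DMSO. Its log2 fold change was 1.40 (SE 0.30, limma adjusted p = 0.224, DESeq2 adjusted p = 0.0173, edgeR adjusted p = 0.258). The ceramide synthase cers4a stood at 161.5, 193.0 and 167.6 against 96.3, 70.2 and 107.2, a log2 fold change of 0.94 (SE 0.23, limma adjusted p = 0.242, DESeq2 adjusted p = 0.0486, edgeR adjusted p = 0.272). No library of either group overlapped the other for these enzymes, as for 18.0% of all genes. Both enzymes were named for the smallest p of their lists, so the lack of overlap adds no support.

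Of the G proteins and effectors below the receptors, 5 of 37 were higher and 3 of 37 lower at 10 µg/L at an unadjusted p under 0.05, where 7.91% of all genes were higher and 5.21% lower. The α subunit gene gna11a, of the class that activates phospholipase C, stood at 250.4, 254.5 and 192.7 normalized counts at 10 µg/L and at 27.8, 52.3 and 127.6 in DMSO. The log2 fold change of gna11a was 1.99 (SE 0.45, limma adjusted p = 0.224, DESeq2 adjusted p = 0.00962, edgeR adjusted p = 0.272). Its paralog gna11b was lower, by a log2 fold change of -0.76 (limma adjusted p = 0.342). In the lists with no called gene, the smallest p were those of aldh3a2b, whose human counterpart oxidizes the aldehyde left by S1P lyase (0.99), the acid sphingomyelinase smpd1 (0.72) and lpar2b (0.34), given as log2 fold changes, with unadjusted limma p-values from 0.0649 to 0.196. Between the concentrations, counts of higher and lower genes were 5 and 0 of 12 for other S1P handling, 6 and 0 of 27 for ceramide and sphingosine, 2 and 1 of 10 for sphingomyelin, 6 and 1 of 21 for glycosphingolipids, 9 and 1 of 36 for G proteins and effectors and 0 and 0 of 8 for lysophosphatidic acid receptors, where 14.2% of all genes were higher and 11.5% lower. Markers of neurons and of liver also differed between the concentrations. Of 11 neuron markers, 7 were lower and 1 higher at an unadjusted p under 0.05 in limma, and their summed levels, 39436 to 41153 at 10 µg/L and 42691 to 56702 at 0.1 µg/L, did not overlap (32997 to 54349 in DMSO). Of 8 liver markers 4 were higher, and their sums, 32299 to 47199 at 10 µg/L and 19772 to 33665 at 0.1 µg/L, overlapped (14599 to 47182 in DMSO). None of these markers was at 0 in any library, both lists were singled out after their values were seen, and their part in these counts was not tested. In other lists the called markers were 5 of 18 for endothelium, 3 of 12 for leukocytes, 2 of 10 for oligodendrocytes and myelin and 2 of 5 for intestine. They were 1 of 8 for radial glia, 1 of 8 for lens, 1 of 11 for skeletal muscle, 0 of 6 for heart and 0 of 7 for epidermis, against 25.7% of all genes.

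**Figure D5:**
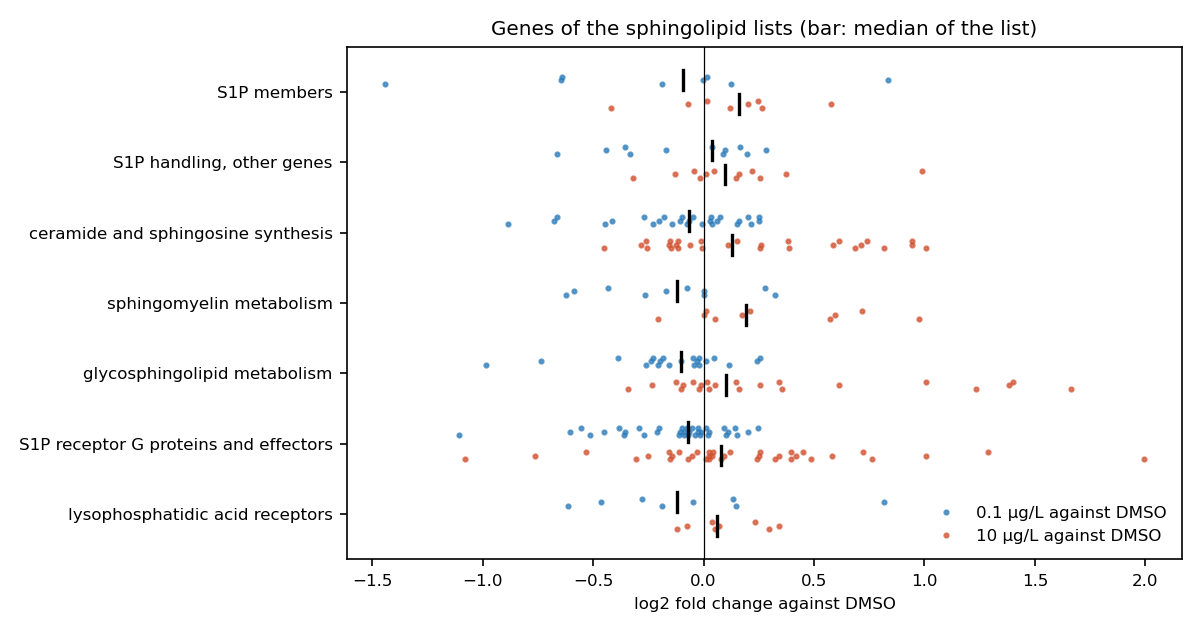
Log2 fold changes against DMSO (horizontal axis) of the genes of each sphingolipid list at the low and the high concentration; each point is a gene and each black bar the median of its list. List medians lie between -0.12 and 0.19, and the highest point is gna11a at the high concentration (1.99).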

How the data were processed

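Poly(A) RNA of pooled larvae was sequenced from 9 libraries, 3 per group, and the libraries were assigned to groups by the submitters' titles. The study names 12 RNA samples for library construction but lists 3 replicates for each of these 3 groups. Per the submitters' processing notes, reads were trimmed with Trimmomatic 0.36, mapped with STAR 2.5.2b to GRCz10 (Ensembl release 89) and counted with featureCounts of Subread 1.5.2. The signal that the authors deposited for each gene and library is its read count divided by a DESeq2 size factor, in 1 table per concentration. Columns of log2 fold change and of p-value that the authors deposited beside it hold their own comparisons and were left aside. Whole reads were recovered from all library columns within a tolerance of 0.05 read.

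The log2 of each value after adding a pseudocount of 1 was tested with limma 3.58.1 in R 4.3.3 (trend, two-sided, minimum mean of 10 normalized counts, Benjamini-Hochberg adjustment over all genes tested). For the test between the concentrations, recovered reads were scaled by 1 set of median-of-ratios size factors. A fold change on this scale understates the change of low genes. Gene lengths were not used, so levels were not compared between genes, and the ratios of reads within a library are not ratios of transcript number. Each replicate is a separate beaker.

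Counts of called genes and the log2 fold changes of the S1P and other named genes were recomputed with edgeR 4.0.16 or DESeq2 1.42.0 on recovered reads, after leaving out each library, with other pseudocounts (0.5, 5) or minimum means (none, 1, 50), with TMM or quantile scaling, with limma's trend removed or its moderation made robust, with the replicate number blocked, with the first index in the model (comparisons with DMSO only), and in 1 model of all 9 libraries. Besides the S1P genes, the text names in each list the gene with the smallest p at each concentration, and the 5 genes most like s1pr2 and s1pr1. A few others (gna11b and marker genes) were named after their values were seen. The genes and lists were chosen with earlier results of these data known. Relations with marker sums were tested by exact permutation of the 9 libraries and adjusted over 88 relations. Python 3.11.15, pandas 2.3.3, numpy 2.4.6 and matplotlib 3.10.9 were used.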

Additional observations from a re-analysis of the deposited data

Results flagged for a closer look

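The receptor s1pr2 drew attention because all 3 libraries at 10 µg/L lay above the DMSO mean on the joint log2 scale and all 3 at 0.1 µg/L lay below it. The difference between these effects, which is that of 10 against 0.1 µg/L, was 1.66 on the log2 scale, with an unadjusted p of 0.00730 and an adjusted p of 0.0887 in limma. That p comes from the values that raised the flag, so it adds no support. DMSO replicates 1 and 3 (54.6 and 54.2 normalized counts) lay above every 10 µg/L library (44.6 to 47.7). Against DMSO the log2 fold change at 10 µg/L was 0.20 (limma adjusted p = 0.861).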

How the results depend on the processing

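The S1P genes kept the direction of their log2 fold change in 142 of 155 alternative values at 0.1 µg/L, 143 of 157 at 10 µg/L and 145 of 148 between the concentrations. The number of libraries, 3 per group, limits all of these values, and s1pr2, s1pr3a and s1pr5b also rest on few reads. The cause of the changes below was not tested, except that the first index as a covariate sets the exposed libraries against DMSO replicate 3 alone.

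At 0.1 µg/L, 299 genes were called at an unadjusted p under 0.05, and 450 without a trend, 187 with the replicate block, 531 with all 9 libraries in one model, 2191 with the index as a covariate and 112 to 853 with a library left out. Of the S1P genes 1 was called, and 0 with a minimum mean of 50, 0 with the replicate block, 0 in edgeR, 2 with the index (s1pr5a and sgpl1) and 0 to 2 with a library left out. At 10 µg/L, 2572 genes were called, and 1297 to 5252 with a library left out. There 0 genes had an adjusted p under 0.05 in limma, 230 in DESeq2 and 0 to 2190 with a library left out, the most without DMSO replicate 3. Of the S1P genes 0 were called, and 1 (s1pr1) with quantile normalization and 1 (s1pr1) with the index. Between the concentrations, 4868 genes were called, and 2879 to 7426 with a library left out. The adjusted count was 0, and 740 with the replicate block, 1677 in DESeq2 and 0 to 5125 with a library left out, the most without 0.1 µg/L replicate 2. Of the S1P genes 1 was called, and 0 with a minimum mean of 50, where s1pr2 is not tested, 2 with quantile normalization, 2 without a trend, 2 in DESeq2 and 1 to 2 with a library left out.

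Directions turned at 0.1 µg/L for s1pr3a with the index (-0.17), sphk2 in edgeR (0.0013) and DESeq2 (0.013), spns2 with quantile normalization (-0.016), and ugcg with quantile normalization (0.085), in edgeR (0.12) and in DESeq2 (0.13). At 10 µg/L they turned with the index for s1pr2 (-0.23), s1pr3a (-0.42), s1pr5a (-0.64), spns2 (0.12), sgpl1 (-0.43), smpd5 (0.19), smpd1 (-0.072), akt1 (0.094) and lpar4 (-0.53), with quantile normalization for s1pr5a (-0.15) and lpar4 (-0.41), and for s1pr5a in edgeR (-0.089) and DESeq2 (-0.078). Between the concentrations s1pr5b turned with quantile normalization (-0.13).

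With a library left out, log2 fold changes that turned ranged at 0.1 µg/L from -0.14 to 0.073 for sphk2, -0.092 to 0.17 for spns2, -0.53 to 0.17 for sgpl1, -0.54 to 0.35 for ugcg and -0.68 to 0.59 for gna11a. At 10 µg/L they ranged from -0.24 to 0.43 for s1pr2, -0.36 to 0.34 for s1pr5a, -0.17 to 0.047 for spns2, -0.077 to 0.61 for sgpl1, -0.085 to 0.067 for hexb, -0.29 to 0.20 for akt1 and -0.30 to 0.60 for lpar4. Between the concentrations they ranged from -0.57 to 0.18 for s1pr3a and -0.22 to 0.039 for spns2.

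Libraries share only a replicate number. Deviations from the group means of same-numbered libraries had r from -0.35 to 0.29 at 0.1 µg/L and DMSO, -0.05 to 0.18 at 10 µg/L and DMSO, and -0.07 to 0.09 between the concentrations, so the replicate block is no pairing of the design.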
